A study of Mus musculus with 6 samples.

Results

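The genes examined here encode the cardiac myosin heavy chains (Myh6, Myh7 and Myh7b), the ventricular light chains (Myl2 and Myl3), the atrial light chains (Myl4 and Myl7) and the kinase of the regulatory light chain in cardiomyocytes (Mylk3). They were chosen by gene name, and all 8 were among the 54532 genes of the deposited count table. Left ventricles of male mice were sequenced 4 weeks after aortic banding (AB), a ligature around the aorta that overloads the ventricle with pressure. The mice were 8 to 10 weeks old at surgery. There were 3 libraries labelled with the genotype HINT2CTG-Myh6Cre (HINT2-TG, written TG) and 3 labelled C57BL/6J (non-transgenic, NTG). TG mice carried HINT2 behind the CAG promoter and Cre behind the Myh6 promoter, and received tamoxifen at 5 mg/kg per day for 7 days. HINT2 is a nucleotide hydrolase of the mitochondrion. Neither the labels nor the methods give Cre or tamoxifen for NTG mice, so the transgene, Cre and tamoxifen cannot be told apart in the difference between groups. No sham-operated libraries were analysed here, so no value below measures the response to banding itself.

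Myosin of the heart is a hexamer of a pair of heavy chains, which hold the motor, and 2 kinds of light chain, essential and regulatory, which brace the lever arm. Myh6 (alpha, fast) and Myh7 (beta, slow) lie next to each other on 1 chromosome. The adult mouse ventricle mostly uses Myh6, and pressure overload is known to bring back Myh7, as in the fetal heart. Myh7b is a minor, slow heavy chain gene. Myl2 (regulatory) and Myl3 (essential) belong to the ventricle, Myl7 (regulatory) and Myl4 (essential) to the atrium and the embryonic ventricle, and Mylk3 phosphorylates Myl2.

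The count table uses mouse build GRCm38. Myh6 (ENSMUSG00000040752) is at chr14:54941921-54966927 and Myh7 (ENSMUSG00000053093) at chr14:54970684-54994626, both on the minus strand. Myh7b (ENSMUSG00000074652) is at chr2:155611212-155634307 on the plus strand. Myl2 (ENSMUSG00000013936) is at chr5:122100951-122113472 and Myl3 (ENSMUSG00000059741) at chr9:110741861-110769798, both on the plus strand. Myl4 (ENSMUSG00000061086) is at chr11:104550663-104595753 on the plus strand, Myl7 (ENSMUSG00000020469) at chr11:5896637-5898782 and Mylk3 (ENSMUSG00000031698) at chr8:85324303-85386345, both on the minus strand.

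Each heavy chain gene holds a microRNA in an intron, and the counts of these host loci are given further on. The 3 guide strands are shown because the pair in Myh6 and Myh7 is nearly the same molecule. The sequences are those of RefSeq on GRCm38.p6, with bases 2 to 8 from the 5′ end, the seed that pairs with targets, in capitals.
mmu-miR-208a-3p (Myh6, chr14:54949072-54949093, minus strand): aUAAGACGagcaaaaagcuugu
mmu-miR-208b-3p (Myh7, chr14:54975710-54975731, minus strand): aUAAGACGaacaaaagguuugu
mmu-miR-499-5p (Myh7b, chr2:155622893-155622913, plus strand): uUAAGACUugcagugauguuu
miR-208a-3p and miR-208b-3p have the same seed and differ at 3 of 22 positions counted from the 5′ end (G10A, A16G and C18U, with the base of miR-208a first). The seed of miR-499-5p differs from theirs at its last base alone (G8U).

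The stretches before the start sites of the 2 main heavy chains and of the atrial regulatory chain are shown as examples from the 8 genes. All 8 genes had an entry among the RefSeq promoters. The 250 bases before each start were searched on both strands for TATAAA (the core of the TATA box), CATTCC (bound by TEAD factors), AGGTCA (a half-site of the thyroid hormone receptor), GATAAG (a site of the cardiac factor Gata4 and its relatives) and CACGTG (an E-box). For Myh6 the printed stretch is the far 216 of these bases and stops where an annotated exon begins, short of the start. That RefSeq start lies 320 bases inside the gene span given above, so the whole stretch lies within that span. Matches are in capitals, and GGAATG is CATTCC on the other strand.
Myh6 (chr14:54966642-54966857, minus strand): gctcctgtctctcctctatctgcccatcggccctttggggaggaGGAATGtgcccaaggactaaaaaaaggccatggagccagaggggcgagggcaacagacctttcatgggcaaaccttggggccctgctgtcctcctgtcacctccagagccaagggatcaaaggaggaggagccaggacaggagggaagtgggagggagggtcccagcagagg
Myh7 (chr14:54994627-54994876, minus strand): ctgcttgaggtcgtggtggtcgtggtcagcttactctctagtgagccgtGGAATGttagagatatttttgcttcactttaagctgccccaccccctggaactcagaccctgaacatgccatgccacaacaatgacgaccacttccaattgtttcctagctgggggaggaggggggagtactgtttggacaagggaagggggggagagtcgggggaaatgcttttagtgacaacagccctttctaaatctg
Myl7 (chr11:5898783-5899032, minus strand): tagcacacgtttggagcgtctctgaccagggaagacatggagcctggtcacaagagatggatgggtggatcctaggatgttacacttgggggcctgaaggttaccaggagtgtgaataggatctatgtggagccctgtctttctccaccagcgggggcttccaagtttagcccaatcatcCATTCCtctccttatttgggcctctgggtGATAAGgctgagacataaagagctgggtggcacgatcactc
CATTCC begins 206 bases before the RefSeq start of Myh6. It begins 201 before the first of 2 RefSeq starts of Myh7 and 70 before that of Myl7. The window before the second start of Myh7, 77 bases further on, held none of the searched motifs. GATAAG begins 41 bases before the start of Myl7. Among the genes not shown, CATTCC was found for Myl3 and Mylk3, and not for Myh7b, Myl2 or Myl4. AGGTCA was found for Myh7b and Myl2, GATAAG for Mylk3, TATAAA for Myl2 and CACGTG for Myh7b. Of all 32851 promoter windows of this length, 12.6% held CATTCC and 6.5% held GATAAG on either strand, and a match is only a match of letters.

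Library totals were 14863568 to 17581220 counts for NTG and 14944465 to 17235802 for TG. Mitochondrial genes took 13.4% to 19.2% of NTG counts and 16.0% to 21.5% of TG counts. Levels are CPM, the count of a gene per 1000000 counts of its library, with library sizes scaled by TMM, a factor that makes most genes equal between libraries. The check of the targeted gene went against 1 label: Hint2 had 0.819 CPM (12 counts) in the library labelled NTG 1, against 28.9 and 32.3 in NTG 2 and NTG 3, and 57.2, 47.1 and 53.0 in TG 1 to TG 3. On the first principal component (52.3% of the variance) of all genes that library was at −5.08, against 55.7 and 29.3 for NTG 2 and NTG 3 and −32.7, −10.7 and −36.5 for TG 1 to TG 3. By chi-square of counts per gene it was nearer to TG 2 (17.8), TG 1 (21.5) and TG 3 (28.1) than to NTG 3 (33.1) and NTG 2 (71.2). The comparisons of the 8 genes are therefore given also without that library. In edgeR's quasi-likelihood test over 14774 genes, 0 genes passed an adjusted p of 0.05 with a log2 fold change over 0.5 in size (0% higher and 0% lower). Without adjustment, 18.6% of genes had p under 0.05, of which 1305 (8.83% of all) were higher in TG and 1442 (9.76%) lower. DESeq2 called 228 higher (1.54%) and 355 lower (2.40%). The methods give 3 mice per group, and p-values measure the spread between these 3 libraries of a group.

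In the fit of all 6 libraries, none of the 8 genes passed edgeR's test, against 0% of all genes, and 2 of them (Myh7b and Myl2) were higher in TG at an unadjusted p under 0.05 (8.83% of all genes). DESeq2 called 1, Myh7b, as higher (1.54% of all genes). For Myh7b, Myl2 and Myl3, or 3 of 8, every TG library was above every NTG library, against 11.2% of all genes tested, and in 23.5% of all genes the groups were apart in either direction. The log2 fold change was above 0 for 7 of 8 genes (48.7% of all genes) and its median was 0.57, against −0.0081 over all genes. Myh7 was the gene with a fold change below 0.

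**Figure D1:**
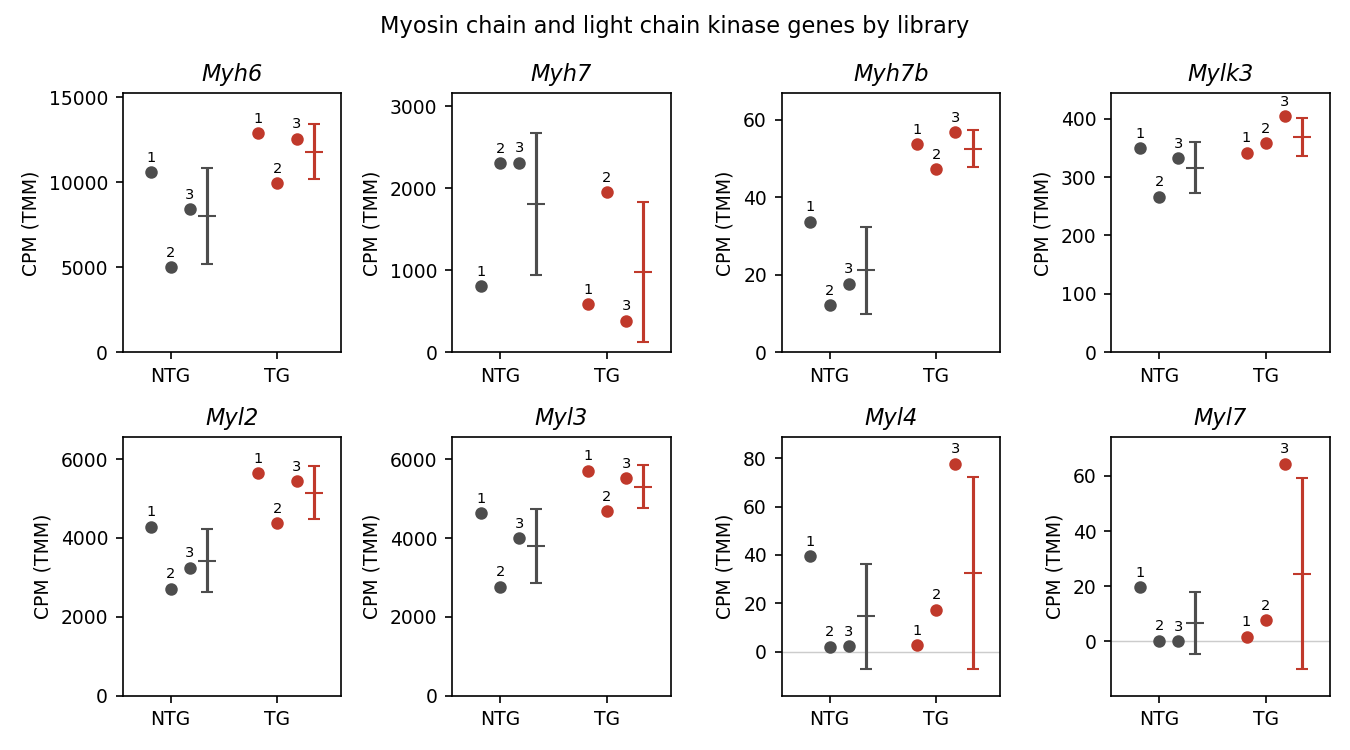
Levels of the 8 genes in each library, in CPM with TMM scaling, on linear axes. Points are libraries with their replicate number, and the bar beside them is the mean ± SD (n = 3). The groups are apart for Myh7b, Myl2 and Myl3, while Myh7, Myl4 and Myl7 spread widely within both groups.

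Myh6, the main heavy chain of the adult mouse ventricle, was at 10584, 5009 and 8421 CPM in NTG 1 to NTG 3. It was at 12880, 9942 and 12541 CPM in TG 1 to TG 3. The groups overlapped, because the library labelled NTG 1 was above TG 2. The means were 8005 ± 2811 in NTG and 11787 ± 1607 in TG (SD, n = 3), and the log2 fold change was 0.56 (SE 0.28, edgeR adjusted p = 0.323). Without the library labelled NTG 1 it was 0.81 (edgeR adjusted p = 0.105), and DESeq2 then called it (adjusted p = 0.00845). Without NTG 2, its lowest library, it was 0.31 (edgeR adjusted p = 0.592).

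Myh7, the slow heavy chain, was at 804, 2303 and 2312 CPM in NTG 1 to NTG 3. It was at 585, 1952 and 384 CPM in TG 1 to TG 3. Its level did not follow the groups: TG 3, TG 1 and the library labelled NTG 1 were low, and TG 2, NTG 2 and NTG 3 were high. The highest library was 6.02 times the lowest. The means were 1806 ± 868 and 974 ± 853 (SD, n = 3), with a log2 fold change of −0.89 (SE 0.68, edgeR adjusted p = 0.501). TG 2 decided the call of 1 tool, since without it DESeq2 gave −1.89 and called Myh7 lower (adjusted p = 0.0216), while edgeR then gave −1.90 and made no call (adjusted p = 0.175). Without TG 3 edgeR gave −0.51 and without TG 1 −0.63, so single libraries moved the value from −1.90 to −0.51. Without the library labelled NTG 1 it was −1.25 (edgeR adjusted p = 0.366).

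The ratio of Myh7 to Myh6 counts, a measure of which heavy chain a ventricle uses that needs no scaling between libraries, was 0.0760, 0.460 and 0.275 in NTG 1 to NTG 3. In TG 1 to TG 3 it was 0.0454, 0.196 and 0.0306. Myh6 counts thus exceeded Myh7 counts in all 6 libraries. The groups overlapped, with TG 2 above the library labelled NTG 1. The mean log2 ratio was −2.23 ± 1.34 in NTG and −3.95 ± 1.41 in TG (SD, n = 3), a difference of −1.71 (two-sided exact permutation test, p = 0.2). An exact permutation test of 3 against 3 libraries cannot go below p = 0.1. Leaving out any 1 library gave differences from −2.51 (without TG 2) to −1.16 (without NTG 2), with −1.17 without TG 3 and −2.45 without the library labelled NTG 1 (p = 0.2 by the same exact permutation test). Summed over both genes, the level was 9811 ± 2189 CPM in NTG and 12761 ± 798 CPM in TG (SD, n = 3).

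The 2 genes share sequence, and its effect on the ratio was not tested. The longest identical run of their principal transcripts was 245 bases, and 11.4% of the 100-base windows of Myh6 occurred in Myh7 (11.2% of those of Myh7 in Myh6). How reads from such windows were counted is not given in the sources used here. No other pair of the 8 genes shared a run of over 33 bases.

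**Figure D2:**
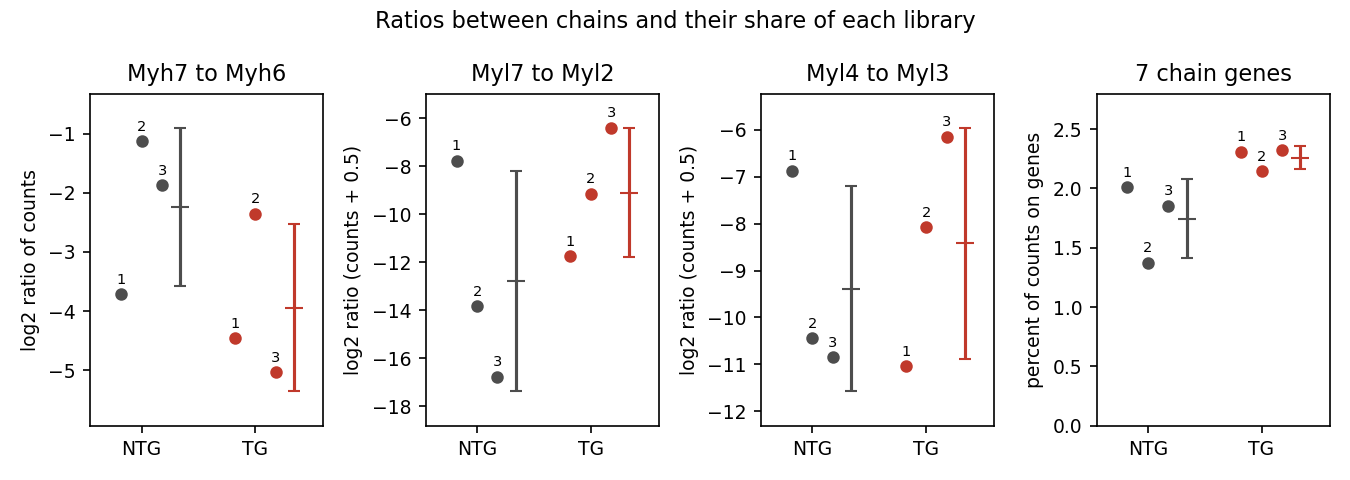
Log2 ratio of Myh7 to Myh6 counts, log2 ratios of atrial to ventricular light chain counts with 0.5 added to each count, and the percent of counts on the 7 chain genes, per library. Points are libraries with their replicate number, with mean ± SD (n = 3) beside them. The share of counts separates the groups, and the 3 ratios overlap between them.

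Myh7b, the minor heavy chain, was at 33.7, 12.1 and 17.7 CPM in NTG 1 to NTG 3. It was at 53.7, 47.2 and 56.8 CPM in TG 1 to TG 3. Each TG library was above each NTG library, and the library labelled NTG 1 was the NTG library nearest to TG. The means were 21.1 ± 11.2 and 52.6 ± 4.87 (SD, n = 3), with a log2 fold change of 1.32 (SE 0.35, edgeR unadjusted p = 0.00692, adjusted p = 0.196). DESeq2 gave an adjusted p of 0.00477 for the same 6 libraries, but made no call without NTG 3 (adjusted p = 0.0979), without TG 1 (0.0723) or without TG 3 (0.105). Without the library labelled NTG 1, edgeR called Myh7b higher, with 1.82 (SE 0.18, adjusted p = 0.0149), among 404 genes called higher (2.67%) and 432 lower (2.85%) of 15136. In the 25 other fits the log2 fold change was 1.04 to 1.83, and the adjusted p ranged from 7.89e-15 to 0.441.

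The ventricular light chains followed each other closely across libraries. Myl2 was at 4288, 2718 and 3250 CPM in NTG 1 to NTG 3 and at 5638, 4375 and 5439 CPM in TG 1 to TG 3. Myl3 was at 4638, 2772 and 3997 CPM in NTG 1 to NTG 3 and at 5713, 4687 and 5525 CPM in TG 1 to TG 3. Both were lowest in NTG 2 and had TG above NTG in all libraries, though for both the library labelled NTG 1 was close to TG 2. The log2 fold change of Myl2 was 0.59 (SE 0.21, edgeR unadjusted p = 0.0245, adjusted p = 0.221), and DESeq2's adjusted p was 0.0517. That of Myl3 was 0.48 (SE 0.22, edgeR adjusted p = 0.286). Myl2 counts were 0.813 to 0.987 per Myl3 count over the 6 libraries, so the 2 chains kept nearly the same ratio in both groups. With the library labelled NTG 1 left out, Myl2 came to 0.79 on the log2 scale (edgeR adjusted p = 0.0583). Myl3 came to 0.65 (edgeR adjusted p = 0.109), and DESeq2 then called both. DESeq2 also called Myl2 without TG 2 (0.71, adjusted p = 0.0273), and not with any other library left out. Without NTG 2, their lowest library, Myl2 came to 0.45 (edgeR adjusted p = 0.478) and Myl3 to 0.30 (edgeR adjusted p = 0.548).

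Mylk3, the kinase that acts on Myl2, was at 350, 267 and 333 CPM in NTG 1 to NTG 3. It was at 342, 358 and 404 CPM in TG 1 to TG 3. The groups overlapped, and the log2 fold change was 0.22 (SE 0.14, edgeR adjusted p = 0.415). It was 0.29 without the library labelled NTG 1 (edgeR adjusted p = 0.238) and 0.11 without NTG 2 (edgeR adjusted p = 0.768). Per 100 Myl2 counts there were 8.15, 9.81 and 10.2 Mylk3 counts in NTG 1 to NTG 3 and 6.06, 8.18 and 7.43 in TG 1 to TG 3. These ratios overlapped too.

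Together the 7 chain genes took 2.01%, 1.37% and 1.85% of the counts in NTG 1 to NTG 3 and 2.31%, 2.15% and 2.32% in TG 1 to TG 3. Their share was higher in every TG library. The means were 1.75% ± 0.333 and 2.26% ± 0.0976 (SD, n = 3), a difference of 0.51 percentage points (two-sided exact permutation test, p = 0.1, the smallest p that 3 against 3 libraries allow). The widest Wilson 95% interval of a single share was 0.0152 points, which covers counting error only. The difference was 0.33 points without NTG 2, 0.65 without the library labelled NTG 1, and between these with any other library left out.

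The levels of marker genes differed between libraries too. The summed level of 10 other cardiomyocyte markers was 17648 to 23375 CPM in NTG and 23002 to 26031 in TG, so the groups overlapped. All 10 had a log2 fold change above 0 (median 0.20), 2 were higher at an unadjusted p under 0.05 (8.83% of all genes), and in none were the groups apart. The 8 fibroblast markers summed to 4709 to 10852 CPM in NTG and 2317 to 4017 in TG, and 6 of them were lower at an unadjusted p under 0.05 (9.76% of all genes). None of the markers of either list was at 0 in any library. Scaling by the cardiomyocyte markers moved the median of all genes to −0.26. The log2 fold change was then 1.12 for Myh7b, 0.36 for Myl2, 0.35 for Myh6 and 0.26 for Myl3. It was 1.02 for Myl4, 1.78 for Myl7 and −1.13 for Myh7. That of Mylk3 was −0.017 (SE 0.13), which is close to 0. In whole ventricle, fewer cells of a type and less RNA per cell cannot be told apart.

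**Figure D3:**
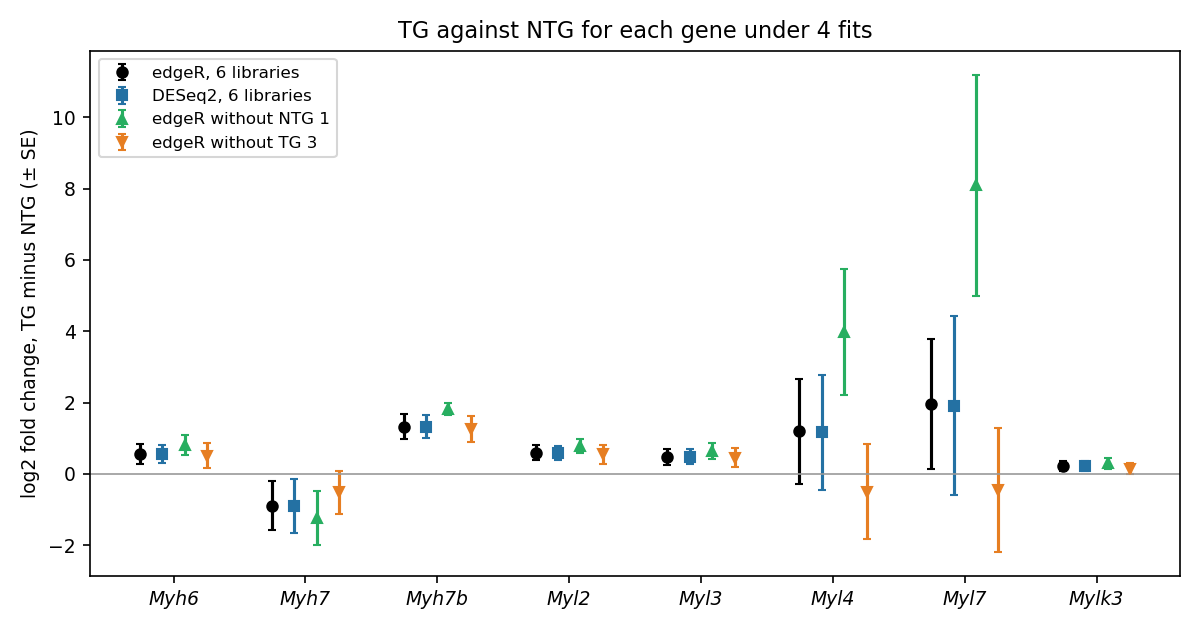
Log2 fold change (TG minus NTG) of each gene with its standard error, from edgeR and DESeq2 on 6 libraries and from edgeR without NTG 1 or without TG 3. Myh6, Myh7b, Myl2 and Myl3 stay above 0 in these 4 fits, Myh7 stays below 0, and Myl4 and Myl7 have the opposite sign when TG 3 is left out.

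The atrial light chains were low and scattered. Myl4 had 580, 37 and 37 counts in NTG 1 to NTG 3 and 37, 306 and 1260 in TG 1 to TG 3, or 39.6, 1.96, 2.14, 2.67, 17.4 and 77.8 CPM. Myl7 had 286, 3 and 0 counts in NTG 1 to NTG 3 and 22, 135 and 1044 in TG 1 to TG 3, or 19.5, 0.159, 0, 1.59, 7.67 and 64.4 CPM. Both were high in TG 3, the library labelled NTG 1 and TG 2, and low in TG 1, NTG 2 and NTG 3, so the groups overlapped. The 0 counts of Myl7 in NTG 3 allow up to 0.179 CPM of that library's unscaled total (3 counts). The log2 fold change was 1.19 for Myl4 (SE 1.48, edgeR adjusted p = 0.690) and 1.96 for Myl7 (SE 1.83, edgeR adjusted p = 0.589).

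Single libraries set both the size and the sign of these differences. Without TG 3 the log2 fold changes were −0.50 (Myl4) and −0.45 (Myl7). Without the library labelled NTG 1 they were 3.99 and 8.09, of which the second sets TG against 3 and 0 counts and has no firm size. edgeR called neither there (adjusted p = 0.254 and 0.208), while DESeq2 called both.

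Set against their ventricular counterparts, the atrial chains were a small part of the light chain RNA. There were 45.5, 0.586 and 0 Myl7 counts per 10000 Myl2 counts in NTG 1 to NTG 3 and 2.81, 17.5 and 118 in TG 1 to TG 3. There were 85.4, 7.09 and 5.36 Myl4 counts per 10000 Myl3 counts in NTG 1 to NTG 3 and 4.67, 37.1 and 141 in TG 1 to TG 3. Both ratios were highest in TG 3 and next highest in the library labelled NTG 1. With 0.5 added to each count, the mean log2 ratio differed between the groups by 3.69 for Myl7 to Myl2 (two-sided exact permutation test, p = 0.3) and by 0.96 for Myl4 to Myl3 (two-sided exact permutation test, p = 0.7). The first was 1.70 without NTG 3, 2.34 without TG 3, 6.20 without the library labelled NTG 1 and 2.63 with 3 counts added in place of 0.5 (chosen after seeing the data), so it has no firm size. The second was −0.17 without TG 3, 0.23 without NTG 3, 0.44 without NTG 2, 2.28 without TG 1 and 2.22 without the library labelled NTG 1.

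Some other genes of the atrial list had the same pattern over libraries and some did not. By the root mean square difference of centred log2 CPM over the 6 libraries, the gene most like Myl7 was Sln, sarcolipin, which inhibits the calcium pump of atrial muscle (0.799, against a spread of 3.23 for Myl7 itself). The gene most like Myl4 was Mybphl, a myosin binding protein of the atrium (0.408, against 2.10 for Myl4), followed by Lmntd1 (0.636) and Igha, an immunoglobulin heavy chain gene of plasma cells (0.680). Igha was at 9.49, 1.27 and 2.14 CPM in NTG 1 to NTG 3. In TG 1 to TG 3 it was at 1.88, 13.02 and 30.8 CPM. It had TG 2 above the library labelled NTG 1, where Myl4 had the reverse. Sln was at 8.33, 0.0531 and 0.0579 CPM in NTG 1 to NTG 3 and at 0.288, 4.09 and 24.8 CPM in TG 1 to TG 3. Mybphl was at 2.59, 0 and 0 CPM and at 0.216, 1.42 and 7.16 CPM. Both were again high in the library labelled NTG 1, TG 2 and TG 3. Kcna5, a potassium channel gene of the atrial list, was at 93.8 to 138 CPM, with no such pattern. Gja5, a gap junction gene of that list, was at 13.6 to 17.4 CPM, also without it. In NTG 2 and NTG 3 Kcna5 was at 94.3 and 118 CPM and Gja5 at 17.4 and 16.5 CPM. Myl7 was at 0.159 and 0 CPM there. Whether Kcna5 and Gja5 report atrial tissue in a ventricle was not tested. Bmp10, of the right atrium, was at most at 0.216 CPM. Stard10, Kcnj5 and Kcnj3, also of the atrial list, were higher in TG at an unadjusted p under 0.05 (log2 fold changes 1.19, 0.97 and 1.04), and Dkk3 was lower (−0.75). Kcnj5, an atrial potassium channel gene, was at 41.0 CPM in TG 1, where Myl7 was low, and at 30.0 in the library labelled NTG 1, 13.2 in NTG 2, 12.8 in NTG 3, 26.7 in TG 2 and 41.5 in TG 3. Summed without Nppa, the 9 atrial markers were at 224 to 262 CPM in NTG and 250 to 279 in TG, of which Kcna5 alone was 93.8 to 138 CPM. The part of atrial tissue in the levels of Myl4 and Myl7 was not tested.

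**Figure D4:**
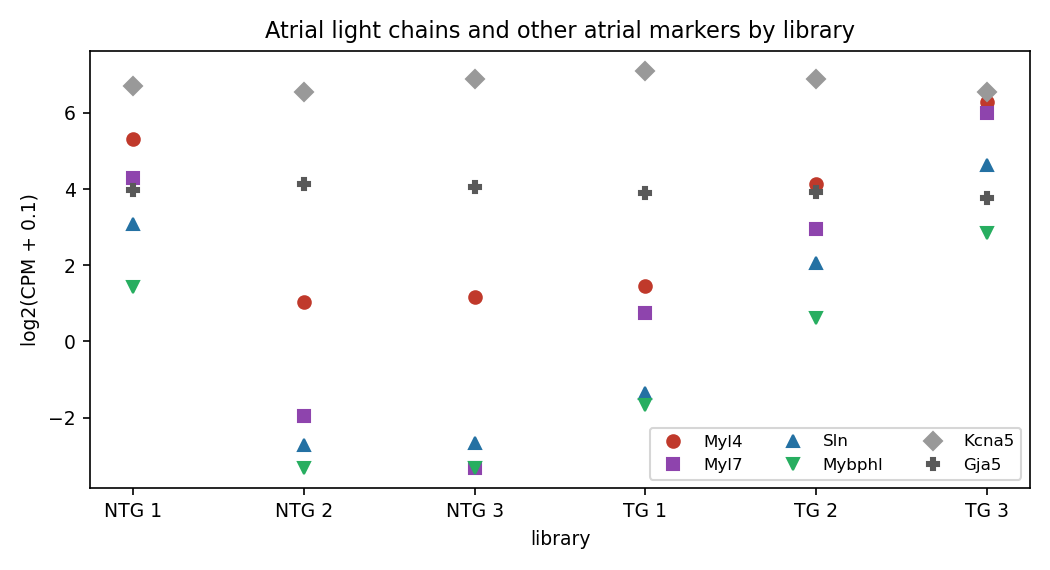
Levels of Myl4, Myl7 and 4 further genes of the atrial list in each library, as log2(CPM + 0.1). Myl4, Myl7, Sln and Mybphl are all high in NTG 1, TG 2 and TG 3 and low in the other libraries, while Kcna5 and Gja5 stay nearly level.

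Levels of different genes can be compared only per length, here as CPM per kilobase of the principal transcript. In NTG the order was Myl3 (4058 ± 1012), Myl2 (3845 ± 899), Myh6 (1309 ± 460), Myh7 (290 ± 139), Mylk3 (85.6 ± 11.9), Myl4 (15.4 ± 23.0), Myl7 (11.1 ± 19.0) and Myh7b (3.43 ± 1.82), as mean ± SD of 3 libraries. Myl3 and Myl2 did not differ beyond their spread, nor did Myl4, Myl7 and Myh7b. In TG the order was Myl2 (5794 ± 764), Myl3 (5665 ± 583), Myh6 (1928 ± 263), Myh7 (156 ± 137), Mylk3 (99.5 ± 8.80), Myl7 (41.6 ± 58.8), Myl4 (34.6 ± 42.2) and Myh7b (8.53 ± 0.790). There Myh7 and Mylk3 did not differ beyond their spread either. The low end of the order rests on single libraries. In NTG the library labelled NTG 1 held 42.0 of Myl4 and 33.1 of Myl7 per kilobase, while NTG 2 and NTG 3 held 2.08 and 2.27 of Myl4 and 0.270 and 0 of Myl7, against 1.96 and 2.87 of Myh7b. In TG, TG 3 held 109 of Myl7 and TG 1 and TG 2 held 2.69 and 13.01, against 8.71 and 7.67 of Myh7b. The place of Myh7 above Mylk3 in TG came from TG 2, with 313 of Myh7 per kilobase against 93.9 in TG 1 and 61.6 in TG 3, where Mylk3 was at 92.4 and 109. The order also rests on the length used: divided by the union of all exons, Myl4 came to 3.14 in NTG and 7.03 in TG, below Myh7b at 3.19 and 7.92.

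At the Myh7 locus, the counts assigned to 2 noncoding genes were highest in the libraries with the lowest Myh7 counts. Mhrt, an RNA antisense to Myh7 that starts between the 2 heavy chain genes, was at 12.8, 3.50 and 3.30 CPM in NTG 1 to NTG 3 and at 10.2, 3.98 and 11.3 CPM in TG 1 to TG 3. Mir208b, the microRNA gene in Myh7, had 33, 5 and 6 counts in NTG 1 to NTG 3 and 27, 10 and 26 in TG 1 to TG 3. The library labelled NTG 1, TG 1 and TG 3, the 3 libraries with the least Myh7, held the most of both. Per 1000 Myh7 counts there were 16.0, 1.52 and 1.43 Mhrt counts in NTG 1 to NTG 3 and 17.4, 2.04 and 29.4 in TG 1 to TG 3. Between the groups neither passed edgeR's test, with log2 fold changes of 0.38 (SE 0.63, adjusted p = 0.765) for Mhrt and 0.56 (SE 0.84, adjusted p = 0.744) for Mir208b. Leaving out the library labelled NTG 1 gave 1.31 (edgeR adjusted p = 0.127) and 2.12 (edgeR adjusted p = 0.0891). These orders describe 6 libraries and carry no test.

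The annotation limits these counts. Mhrt shares 484 exon bases with Myh7 on the other strand, 5.62% of the exon bases of Myh7. Whether counting used strand is not given, and reads from the 2 genes cannot then be told apart. Libraries of polyadenylated RNA hold no mature microRNA, so counts at Mir208b are RNA of the region and not miR-208b. Mir208a had at most 3 counts and Mir499 at most 1 in any library, too few to compare. Gm49130, which shares 114 exon bases with Myh6, was at 0.478, 0.212 and 0.116 CPM in NTG and at 2.09, 0.853 and 1.42 CPM in TG, with at most 29 counts and no overlap between groups (log2 fold change 2.44, SE 0.58, edgeR adjusted p = 0.196). With the library labelled NTG 1 left out, edgeR called it higher (3.06, adjusted p = 0.0384).

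Nppa, the gene of atrial natriuretic peptide and a marker of the pressure-loaded ventricle, had the same lowest libraries as Myh7. It was at 754, 1394 and 1400 CPM in NTG 1 to NTG 3 and at 172, 867 and 268 CPM in TG 1 to TG 3. TG 1, TG 3 and the library labelled NTG 1 were again the lowest. The split was not the same. In Myh7 the library labelled NTG 1 lay closer to TG 1 and TG 3, while in Nppa it lay closer to TG 2. The log2 fold change of Nppa was −1.44 (SE 0.61, edgeR adjusted p = 0.275). It was −1.69 without the library labelled NTG 1 (edgeR adjusted p = 0.252). The gene closest to Myh7 in pattern was Sost, an inhibitor of Wnt signalling, with a root mean square difference of 0.142 against a spread of 1.03 for Myh7. It lay at only 0.617 to 4.69 CPM. Lrp8 (0.290) and Krt18 (0.329) came next.

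**Figure D5:**
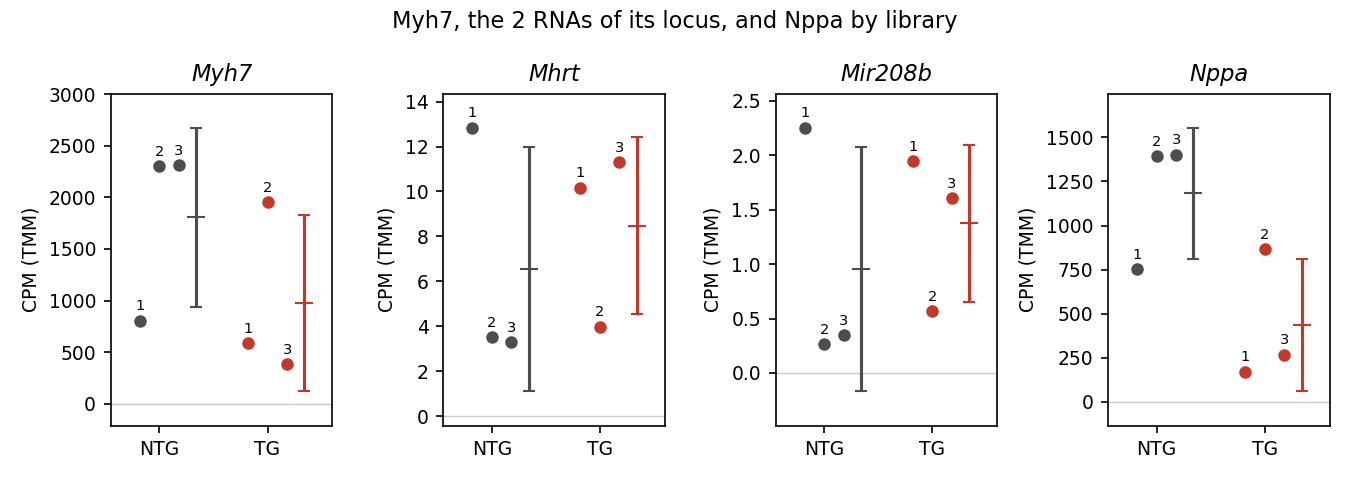
Levels of Myh7, of Mhrt and Mir208b from the same locus, and of Nppa per library, in CPM with TMM scaling. Points are libraries with their replicate number, with mean ± SD (n = 3). Replicate 1 of NTG and replicates 1 and 3 of TG are low in Myh7 and Nppa and high in Mhrt and Mir208b.

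The same measure gave the closest genes for the other chains. For Myl2 these were Etfa, which passes electrons from fatty acid oxidation to the respiratory chain (0.0228), Ndufs8, a subunit of complex I (0.0349), and Zbtb46 (0.0362). For Myl3 they were Tmem143 (0.0280), the potassium channel gene Kcnk3 (0.0285) and Coq10a (0.0357), and for Myh6 Plxnb1 (0.050), Dnajc28 (0.0545) and Sbk1 (0.0616). For Myh7b they were Inka2 (0.133), A530016L24Rik (0.142) and Lrrc15 (0.148), and for Mylk3 Neurl2 (0.0268), Wdr41 (0.0388) and Mief2 (0.0414). The spread of the chains themselves on this scale was 0.377 for Myl2, 0.348 for Myl3, 0.459 for Myh6, 0.840 for Myh7b and 0.179 for Mylk3. These are likenesses over 6 libraries that share depth and cell makeup, and carry no test.

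Further genes of the myosin system were counted at the same unadjusted p under 0.05, which 8.83% of all genes met as higher and 9.76% as lower. Of 11 other heavy chain genes 4 were tested, and 1, the smooth muscle gene Myh11, was higher (log2 fold change 0.70, SE 0.17, DESeq2 adjusted p = 0.0168). The 7 smooth muscle markers summed to 229 to 306 CPM in NTG and 364 to 423 in TG, with none at 0. Of these markers 5 were higher, DESeq2 called 2 higher, and Tagln had a log2 fold change below 0 (−0.61). Of 8 other light chain genes 7 were tested, and 1 was lower, Myl1 of fast skeletal muscle (−0.33). Their median was −0.069. Of 12 genes for light chain kinases, calmodulins and the myosin phosphatase, 2 were higher, Mylk, the smooth muscle kinase (0.47), and Ppp1r14c, a phosphatase inhibitor (0.58). Of 12 tested partners in the thick filament 2 were higher, Mybpc2 of the myosin binding protein C family (0.55, DESeq2 adjusted p = 0.0408) and the M-band ubiquitin ligase Trim55 (0.24), and their median was 0.28. edgeR called none of these at its adjusted threshold. Without the library labelled NTG 1 it called 2 kinase and phosphatase genes and 2 thick filament partners higher (2.67% of all genes) and none of the other heavy or light chains, with medians of 0.12 and 0.37 for the first 2 lists and −0.14 and 0.066 for the other heavy and light chains.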

How the data were processed

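Per the labels and the study's methods, polyadenylated RNA of 6 left ventricles (3 TG, 3 NTG) was sequenced. The authors aligned the reads with HISAT2 and counted them with featureCounts (1.5.0-p3), and deposited 1 table of whole-number counts per gene, not normalized, with gene lengths. The submitters' processing notes name build GRCh38, a human build. The table itself holds mouse genes, of which 54409 of 54532 were in GENCODE M21 (GRCm38), 98.3% of them at the same position. All lengths used for levels came from that annotation. Columns were matched to samples by name.

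Counts were filtered with filterByExpr (14774 genes left), scaled with TMM and tested with edgeR 4.0.16 (quasi-likelihood, robust, no covariates, R 4.3.3) with Benjamini-Hochberg adjustment. Genes were called where the adjusted p was below 0.05 and the change exceeded 0.5 on the log2 scale. The likeness between genes used a prior count of 2. DESeq2 1.42.0, limma 3.58.1 (voom), other scalings and filters, a replicate block and leaving out each library were alternatives. Ratios were tested with exact two-sided permutation tests (SciPy 1.17.1). Light chain ratios had 0.5 counts added, since Myl7 was at 0 in 1 library. The scripts were tested on simulated data.

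The members and gene lists were chosen with earlier results of these data known. Named genes were taken from the members, Hint2, the 2 genes of smallest p in each direction of each list, the 3 genes most like each member, and overlapping genes. Kcna5, Gja5, Bmp10 and Kcnj3 in the atrial comparison, Acta1 and Hand1 were named after their values were seen.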

Additional observations from a re-analysis of the deposited data

How the results depend on the processing

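The number of genes called moved with the tool and the libraries. Higher and lower calls were 0 and 0 by edgeR on all 6 libraries, 116 and 116 without the filter on low counts, 228 and 355 by DESeq2, 206 and 339 by the likelihood-ratio test, and 7 and 3 without NTG 1 and TG 3 (chosen after seeing the data). With 1 library left out edgeR gave 0 to 404 higher (1 without TG 3, 3 without TG 2) and 0 to 432 lower (4 without TG 2), most without NTG 1, while DESeq2 gave 896 and 877 without NTG 1, 47 and 76 without NTG 2, 40 and 129 without NTG 3, 103 and 76 without TG 1, 292 and 486 without TG 2, and 29 and 67 without TG 3. Members called were 0 by edgeR, 1 by DESeq2, 1 by the likelihood-ratio test, 0 to 1 by edgeR with a library left out, 6 by DESeq2 without NTG 1, 3 without TG 2, 1 without NTG 2 and 0 without NTG 3, TG 1 or TG 3, where Myh7b lost its DESeq2 call. Scaling by RLE, upper quartile, library size or cardiomyocyte markers, voom, leaving out mitochondrial genes and a minimum of 10 counts (which leaves Myl7 untested) gave 0 calls.

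Directions that reversed were those of the Myl4 to Myl3 ratio, Myl4, Myl7 and Mylk3. The Myl4 to Myl3 ratio was −0.17 without TG 3, with a leave-one-out range of −0.17 to 2.28. Myl4 was −0.50 by edgeR and −0.54 by DESeq2 without TG 3, and up to 3.99 by edgeR without NTG 1. For Myl7 these values were −0.45, −0.50 and 8.09. Mylk3 was −0.017 (SE 0.13) scaled by cardiomyocyte markers, which is close to 0. The construction of these alternatives shows that 1 library or the scaling decides them. The Myh7 to Myh6 ratio (−2.51 to −1.16), the Myl7 to Myl2 ratio (1.70 to 6.20) and the share of counts (0.33 to 0.65) kept their direction with any library left out. With 3 counts added in place of 0.5 (chosen after seeing the data), the Myl7 to Myl2 difference was 2.63.

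Replicate numbers did not pair the libraries (correlations of same-numbered libraries 0.081, 0.17 and −0.25). With a replicate block edgeR called 84 genes higher and 147 lower and 0 members, and paired differences were −1.71 for Myh7 to Myh6 (exact sign-flip test, p = 0.25, the smallest 3 pairs allow). Myl7 and the microRNA loci have libraries with 0 to 6 counts, which limits their values.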

Other observations

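Regulators of the myosin genes, among them factors that bind their promoters, were listed as 16 genes and all were tested. At an unadjusted p under 0.05, 4 were higher in TG and 0 lower, against 8.83% and 9.76% of all genes, and the median log2 fold change was 0.10. Thra, the thyroid hormone receptor known to act on Myh6 and Myh7, was at 58.8, 51.5 and 55.9 CPM in NTG 1 to NTG 3 and at 86.5, 73.3 and 76.5 CPM in TG 1 to TG 3, with no overlap between groups. Its log2 fold change was 0.51 (SE 0.10, edgeR adjusted p = 0.196, DESeq2 adjusted p = 0.00744), and 0.55 without the library labelled NTG 1, where edgeR called it (adjusted p = 0.0337). Sox6, a repressor of slow muscle genes, was at 8.46, 7.49 and 10.01 CPM in NTG and at 13.8, 12.4 and 12.5 CPM in TG (log2 fold change 0.58, SE 0.15, edgeR adjusted p = 0.196, or 0.56 and 0.0945 without the library labelled NTG 1).

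Of 8 genes of the fetal programme 7 were tested, 2 were lower at an unadjusted p under 0.05, against 9.76% of all genes (8.83% higher), and the median was −0.50, or −0.60 without the library labelled NTG 1. The counts of the other lists below stand beside the same shares. Actn1, a nonmuscle alpha-actinin, was at 73.7, 137 and 120 CPM in NTG and 57.3, 72.9 and 58.4 CPM in TG (log2 fold change −0.81, SE 0.23, edgeR adjusted p = 0.196, DESeq2 adjusted p = 0.0235), and −1.04 without the library labelled NTG 1, where edgeR called it (adjusted p = 0.0149). Nppb, of brain natriuretic peptide, had a log2 fold change of −0.50 (SE 0.19, edgeR adjusted p = 0.227). Acta1, skeletal actin, overlapped between groups (−0.13, SE 0.27), as did Actc1, cardiac actin (0.34, SE 0.21), and Atp2a2, the calcium pump (0.42, SE 0.27). Among atrial markers (9 of 10 tested) 3 were higher and 1 lower, and among ventricular markers (6 of 7 tested, Hand1 at 0 in every library) 1 was lower, Hey2 (−0.59). The 5 erythroid markers were all lower at an unadjusted p under 0.05 (sums of 1310 to 2245 CPM in NTG and 762 to 908 in TG). So were 3 of 6 macrophage markers, while 2 of 6 endothelial markers were higher. DESeq2 called 4 erythroid markers lower (2.40% of all genes) and none of the other 2 lists. Without the library labelled NTG 1, edgeR called 5 erythroid and 2 macrophage markers lower (2.85% of all genes), and no endothelial marker. Of 9 skeletal muscle markers 4 were tested, 1 higher and 1 lower.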
